A study of Arabidopsis thaliana with 12 samples.

Results

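The core circadian clock of Arabidopsis thaliana was followed through 10 genes, chosen by locus from the 32833 loci of the deposited table, and all 10 passed the filter on low values. They are CCA1 (AT2G46830), LHY (AT1G01060), PRR9 (AT2G46790), PRR7 (AT5G02810), PRR5 (AT5G24470), TOC1 (AT5G61380), GI (AT1G22770), ELF3 (AT2G25930), ELF4 (AT2G40080) and LUX (AT3G46640). RNA was sequenced from 7-day-old seedlings of 2 genotypes, the line that the labels call hop1 hop2 hop3 (hop) and the wild type Col-0 (wt). HOP co-chaperones bind HSP70 and HSP90 at the same time and pass client proteins between them. Seedlings were either held at 38 °C for their last 3 h or left under control conditions, and each of the 4 groups (hop heat, wt heat, hop control, wt control) had 3 libraries. The labels give neither the time of day of harvest nor the light regime, nor the alleles of the mutant.

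The clock is a set of repressors that hold each other in check over the day. CCA1 and LHY are MYB transcription factors that peak around dawn and repress evening genes, many of them through a short promoter sequence called the evening element. PRR9, PRR7, PRR5 and TOC1 (also called PRR1) peak one after the other from morning to evening and repress CCA1 and LHY. In the evening ELF3, ELF4 and LUX form the evening complex, which represses PRR9, PRR7, GI and LUX itself. GI is a large evening protein that works with HSP90 in the maturation of the F-box protein ZTL, which marks TOC1 and PRR5 for degradation. In plants under day and night cycles the morning and evening genes are usually high at opposite times, so their relative levels depend on the time of harvest.

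Matches to short promoter sequences upstream of these genes are shown first, because members are known to act on each other's promoters. The deposited table holds no coordinates and names no genome build, so the sequences were taken from RefSeq TAIR10.1 by locus tag. The 1000 bases before each gene's annotated start were searched on both strands. The windows of CCA1, LHY, PRR7, ELF4 and LUX reached into other annotated genes. The evening element AAAATATCT was found upstream of 5 of the 10 genes (PRR5, TOC1, GI, ELF4 and LUX) and in 7.24% of 27443 windows of the same length before protein-coding genes. PRR5 and GI had 3 copies each. The related CCA1-binding site AAAAATCT was present upstream of LHY, PRR9 and PRR5, against 21.1% of all windows. The LUX-binding site, written as GATACG or GATTCG, was present upstream of 8 members, all except CCA1 and PRR5, against 39.8% of all windows. The G-box CACGTG, bound by light-signalling factors, was present upstream of CCA1, LHY, PRR9, PRR7 and LUX, against 14.8%. A heat shock element, written as blocks of GAA, TTC and GAA with 2 bases between neighbouring blocks, was present upstream of PRR7 alone among the 10, against 1.72% of all windows. None of the 29 matches shared a base with another. A match describes letters in a window and does not show that a factor binds there.

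Stretches around the evening elements are given first, 5′ to 3′ on the strand of the gene, with the element in capitals (in PRR5 the capitals also mark the CCA1-binding site). They are from the windows before TOC1, LUX, ELF4, GI and PRR5:
TOC1, chr5:24674763-24674862, plus strand: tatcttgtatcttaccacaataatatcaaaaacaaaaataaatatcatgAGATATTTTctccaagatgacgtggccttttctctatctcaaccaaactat
LUX, chr3:17182942-17183041, plus strand: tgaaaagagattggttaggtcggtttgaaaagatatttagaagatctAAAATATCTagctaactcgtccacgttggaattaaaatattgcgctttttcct
ELF4, chr2:16735444-16735543, minus strand: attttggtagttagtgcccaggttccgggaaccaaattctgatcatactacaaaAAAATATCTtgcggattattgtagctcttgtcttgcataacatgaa
GI, chr1:8060901-8061000, plus strand: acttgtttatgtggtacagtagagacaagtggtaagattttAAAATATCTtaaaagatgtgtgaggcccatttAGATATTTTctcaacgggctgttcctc
PRR5, chr5:8358717-8358856, minus strand: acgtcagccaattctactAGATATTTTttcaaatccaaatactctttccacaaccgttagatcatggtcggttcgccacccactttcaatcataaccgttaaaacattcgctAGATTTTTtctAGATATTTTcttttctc

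No evening element was found upstream of the morning genes or of ELF3. Stretches with other elements are given for the morning genes, although LUX also had a G-box and PRR5 a CCA1-binding site. Capitals mark the CCA1-binding site of PRR9, the heat shock element of PRR7, which lies 74 bases before its start, and the G-box of CCA1 and of LHY:
PRR9, chr2:19232247-19232346, plus strand: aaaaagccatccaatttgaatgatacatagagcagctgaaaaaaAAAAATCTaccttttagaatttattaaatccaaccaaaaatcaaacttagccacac
PRR7, chr5:642051-642150, minus strand: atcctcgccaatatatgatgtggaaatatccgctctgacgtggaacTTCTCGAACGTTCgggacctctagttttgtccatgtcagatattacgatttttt
CCA1, chr2:19245351-19245450, plus strand: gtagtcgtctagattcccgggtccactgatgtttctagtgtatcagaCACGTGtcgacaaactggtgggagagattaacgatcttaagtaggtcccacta
LHY, chr1:37902-38001, minus strand: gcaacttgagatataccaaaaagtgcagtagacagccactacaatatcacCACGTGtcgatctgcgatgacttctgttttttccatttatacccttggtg

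Libraries held 32.1 to 38.7 M fragments in hop heat, against 27.4 to 29.9 M in wt heat, and 28.7 to 33.8 M in hop control, against 26.1 to 33.9 M in wt control. Levels are given as normalized fragments, the authors' fragment counts divided by a size factor for each library. As a check of the genotype labels, HOP2 had 7.68, 6.36 and 7.15 normalized fragments in hop control, against 483, 635 and 548 in wt control, and 4046 to 5128 in hop heat, against 7318 to 8629 in wt heat. HOP3 had 9.39, 4.24 and 0 in hop control, against 78.5, 88.5 and 75.2 in wt control, and 1216 to 1346 in hop heat, against 89090 to 122589 in wt heat. HOP1 was not lower in the libraries labelled as the mutant, with 554 to 676 in hop control, against 538 to 726 in wt control, and 1654 to 2299 in hop heat, against 991 to 1359 in wt heat. Under heat HOP1 was called higher in hop (log2 0.76, limma). So hop stands for the label throughout. The 4 leaf markers (RBCS1A, LHCB2.1, CA1 and GAPA-1) summed to 0.960 to 1.20 M normalized fragments in hop heat, against 0.715 to 0.937 M in wt heat, and to 0.721 to 0.810 M in hop control, against 0.600 to 0.690 M in wt control, so that hop lay above wt in each condition. Of these 4, none was called between the genotypes at control (1 at an unadjusted p under 0.05, limma) and RBCS1A alone was called under heat, while CA1 and GAPA-1 were called higher under heat than at control in both genotypes. The summed levels of 4 root markers (CASP1, COBL9, EXPA7, PRP3) and of 3 seed markers (CRA1, CRC, OLEO1) overlapped between the genotypes, at 527 to 1604 and 15 to 612 normalized fragments over all libraries. At control all 3 seed markers had log2 fold changes above 0 in hop against wt (1.45 to 2.17, median 2.06, none called). The mean seed sum at control was 285 in hop and 63.5 in wt. Between the genotypes under heat the seed markers ran from -0.14 to 1.84 (median 0.66, none called). Under heat the root sum was 527 to 1029 in hop and 789 to 1168 in wt. All 4 root markers had log2 fold changes below 0 there (-0.97 to -0.33, median -0.55, none called), 2 had an unadjusted p under 0.05 (limma), and EXPA7 had all hop heat libraries below all wt heat libraries. In such bulk samples, fewer cells of a type and less RNA per cell cannot be told apart. The part of depth and of the leaf, root and seed markers in the differences below was not tested.

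After 3 h at 38 °C, 7 of the 10 clock genes were higher and 2 were lower than at control in each genotype, and PRR5 did not pass the test in either. Both morning MYB genes, PRR9 and PRR7 were higher, but so were the evening genes GI, ELF3 and LUX. TOC1 and ELF4 were lower. A gene was called at an adjusted p under 0.05 in limma (Benjamini-Hochberg over 23827 genes), and a large share of all genes differed between heat and control: 68.5% were called in hop (33.3% higher, 35.2% lower) and 69.0% in wt (33.2% higher, 35.8% lower). In hop all heat libraries lay above all control libraries for 7 members and below them for 1, an order held by 34.1% and 36.4% of all genes. In wt the counts were 7 and 2, against 34.8% and 37.6% of all genes. The median log2 fold change of the 10 genes was 1.18 in hop and 0.96 in wt, beside -0.06 and -0.08 over all genes tested. Both heat comparisons set the clock genes' transcripts after the challenge against those at control in each genotype. The labels do not say that the 4 groups were harvested at the same time of day. The part of harvest time in the heat and genotype differences was not tested.

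**Figure D1:**
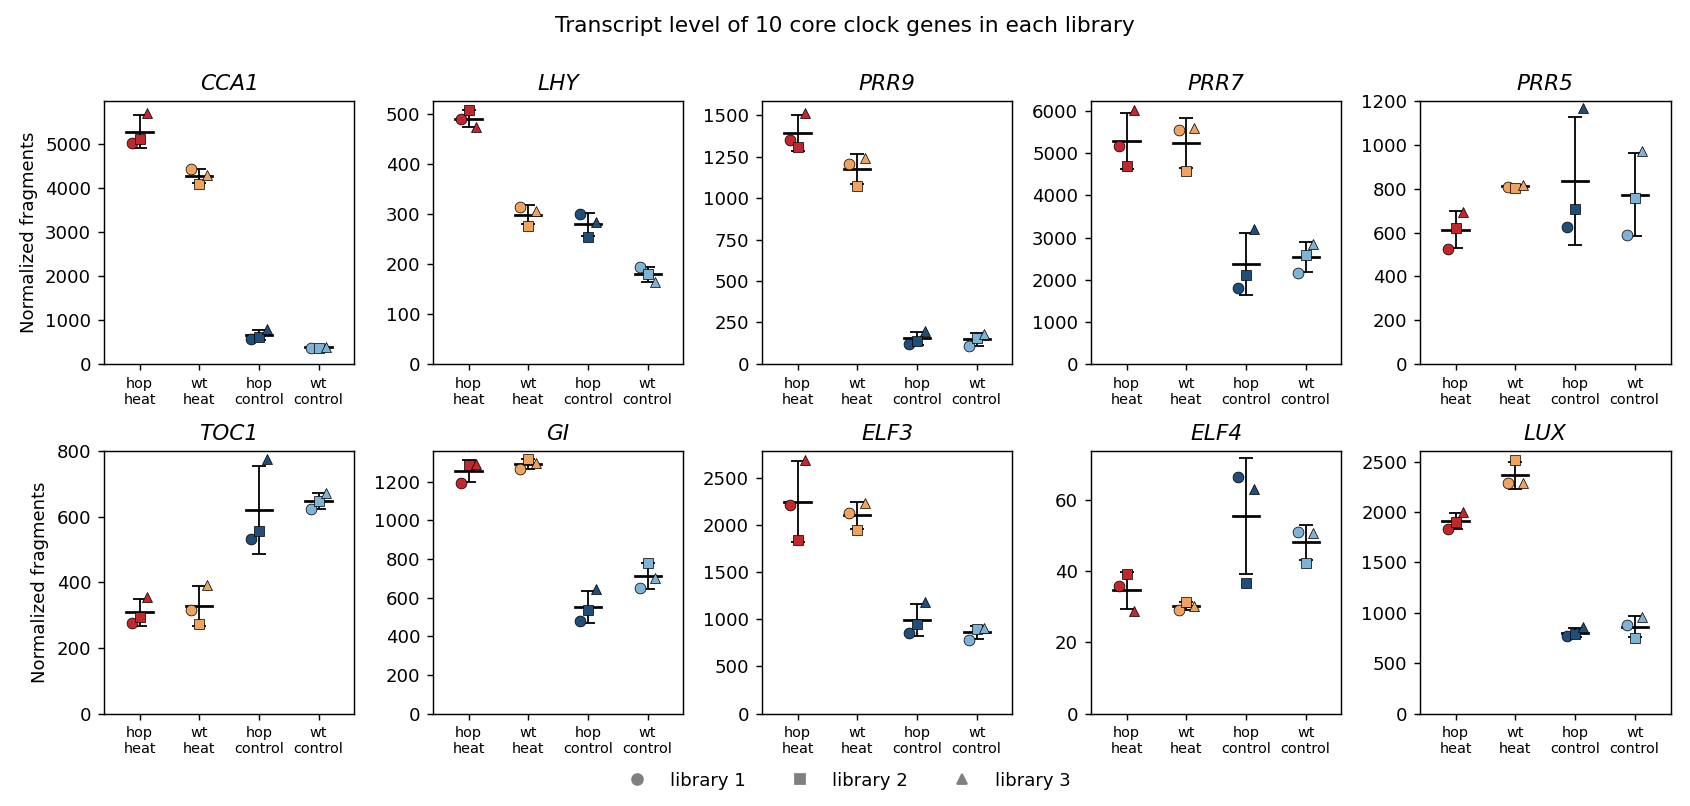
Normalized fragments (linear axis from 0, a separate scale per gene) of the 10 clock genes in the 12 libraries, with points for single libraries, a bar for the group mean and whiskers for the SD. CCA1 and PRR9 in both heat groups sit far above both control groups, while LHY in hop lies above wt in each condition.

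CCA1 showed the largest heat difference of the members in wt. Its level was 5022, 5106 and 5710 normalized fragments in the hop heat libraries, and 570, 614 and 794 in hop control. Wild-type libraries had 4428, 4102 and 4291 under heat and 371, 365 and 389 at control. Heat and control libraries were far apart in both genotypes. The fold was 8.07 in hop (log2 3.01 ± 0.11 SE, adjusted p = 1.87e-12, limma) and 11.4 in wt (log2 3.51 ± 0.11, adjusted p = 3.40e-13). Within the wt comparison, 2.71% of all genes tested had a larger log2 fold change than CCA1, and within hop 4.03%.

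LHY, the close relative of CCA1 with an overlapping function, moved far less. It had 489, 508 and 474 normalized fragments in hop heat and 300, 253 and 283 in hop control. In wt it had 313, 276 and 306 under heat and 194, 180 and 163 at control. All heat libraries lay above the control libraries of the same genotype, but wt heat overlapped hop control. The log2 fold change was 0.82 ± 0.11 in hop (adjusted p = 5.96e-06, limma) and 0.74 ± 0.11 in wt (adjusted p = 1.75e-05), and it was -0.11 and -0.13 when libraries were scaled by total fragments alone.

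That scaling bears on every heat value. Scaled by total fragments alone, the median log2 fold change of all genes moved to -0.97 in hop and -0.94 in wt, and the share of calls that were higher was 17.4% and 17.9%, against 48.6% and 48.1% as deposited. Relative to that median, LHY was at 0.86 in hop and 0.81 in wt, PRR7 at 1.20 and 1.11, GI at 1.23 and 0.91, and ELF3 at 1.23 and 1.35. On the unadjusted scale GI was at 0.26 in hop and -0.02 in wt, and GI, PRR7, ELF3 and LHY were not called in either genotype. CCA1, PRR9 and LUX were called higher, and TOC1 and ELF4 lower, under both scalings.

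Among the pseudo-response regulators, PRR9 had the largest change. PRR9 was at 1349, 1310 and 1514 normalized fragments in hop heat and 123, 141 and 199 in hop control. In wt it was at 1205, 1070 and 1244 under heat, against 108, 157 and 181 at control. The fold was 9.14 in hop (log2 3.19 ± 0.18, adjusted p = 1.04e-09, limma) and 8.01 in wt (log2 3.00 ± 0.18, adjusted p = 2.17e-09). Heat libraries were several times above every control library.

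PRR7 had the highest mean level of the 10 at control, and it is known to be repressed by the heat shock factor HSFB2B. It was at 5161, 4709 and 6020 normalized fragments in hop heat and 1799, 2102 and 3207 in hop control. In wt the values were 5563, 4568 and 5597 under heat and 2160, 2598 and 2856 at control. PRR7 thus lay above its control libraries in both genotypes, with log2 fold changes of 1.20 ± 0.18 in hop (adjusted p = 3.96e-05, limma) and 1.05 ± 0.18 in wt (adjusted p = 0.000134). HSFB2B was itself higher under heat, by a log2 fold change of 5.96 in hop and 5.97 in wt.

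PRR5 was the one member not called in either heat comparison. It had 525, 621 and 697 normalized fragments in hop heat and 627, 708 and 1169 in hop control. In wt it had 810, 804 and 820 under heat and 591, 758 and 973 at control, so heat and control libraries overlapped in both genotypes. Its change on the log2 scale was -0.40 in hop (95% interval -0.87 to 0.08, adjusted p = 0.123, limma) and 0.10 in wt (-0.37 to 0.57, adjusted p = 0.706). In hop PRR5 was called lower when library 1 of hop control was left out (log2 -0.58, adjusted p = 0.0341). Scaled by total fragments alone it was called lower in both, at -1.37 in hop and -0.83 in wt, which is -0.40 and 0.11 relative to the median of all genes.

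TOC1, which represses CCA1 and LHY in the evening, was lower under heat. Its level was 277, 293 and 354 normalized fragments in hop heat and 532, 555 and 775 in hop control. In wt it was 315, 273 and 393 under heat and 624, 648 and 672 at control. No heat library reached a control library of its genotype. On the log2 scale TOC1 changed by -0.996 ± 0.15 in hop (adjusted p = 3.26e-05, limma) and by -1.002 ± 0.15 in wt (adjusted p = 3.12e-05).

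GI moved the other way. It was at 1191, 1286 and 1290 normalized fragments in hop heat and 478, 537 and 643 in hop control. Wild-type seedlings had 1265, 1315 and 1296 under heat and 647, 780 and 702 at control. The heat levels of both genotypes overlapped. At control all hop libraries lay below all wt libraries, an order seen in 8.90% of genes. That difference between the genotypes was not called in limma. On the log2 scale GI changed by 1.19 ± 0.11 in hop (adjusted p = 8.41e-08, limma) and 0.87 ± 0.11 in wt (adjusted p = 3.00e-06). The wt value turned to -0.02 with scaling by total fragments alone.

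The 3 subunits of the evening complex did not move together. ELF3, the scaffold of the complex, was at 2217, 1836 and 2693 normalized fragments in hop heat and 850, 947 and 1180 in hop control. In wt it was at 2128, 1946 and 2231 under heat and 778, 898 and 905 at control. Heat and control libraries of ELF3 did not overlap, and its log2 fold change was 1.18 ± 0.14 in hop (adjusted p = 1.96e-06, limma) and 1.29 ± 0.14 in wt (adjusted p = 7.16e-07). An annotated antisense RNA shares 183 bases with ELF3, and its mean was under 1 normalized fragment in every group.

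LUX, the DNA-binding subunit, was at 1834, 1897 and 1996 normalized fragments in hop heat and 767, 789 and 857 in hop control. In wt it was at 2287, 2520 and 2287 under heat and 876, 751 and 961 at control. All heat libraries were above all control libraries. Its log2 fold change was 1.25 ± 0.10 in hop (adjusted p = 1.68e-08, limma) and 1.46 ± 0.10 in wt (adjusted p = 2.73e-09). A gene on the opposite strand, AT3G46650, shares 1507 bases with LUX, and its means of 31.1 in hop heat and 31.5 in wt heat, against 10.08 in hop control and 9.74 in wt control were small beside those of LUX.

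ELF4, a small protein that promotes the nuclear localization of ELF3, had the lowest counts, 19 to 97 fragments per library. It was at 35.8, 39.2 and 28.9 normalized fragments in hop heat and 66.6, 36.8 and 63.0 in hop control. In wt it was at 29.1, 31.4 and 30.3 under heat and 51.1, 42.4 and 50.8 at control. The groups overlapped in hop through library 2 of hop control, and were apart in wt. The log2 fold change was -0.63 ± 0.23 in hop (adjusted p = 0.0264, limma) and -0.65 ± 0.23 in wt (adjusted p = 0.0229). The call was lost in hop without library 3 of hop heat, or without library 1 or 3 of hop control (log2 -0.51, -0.48 and -0.52; adjusted p = 0.0951, 0.123 and 0.103), and in a fit of only the 6 hop libraries (-0.63, adjusted p = 0.0560). In wt it was lost without library 1 of wt heat or library 1 or 3 of wt control (log2 -0.62, -0.60 and -0.61; adjusted p = 0.0570, 0.0638 and 0.0678).

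**Figure D2:**
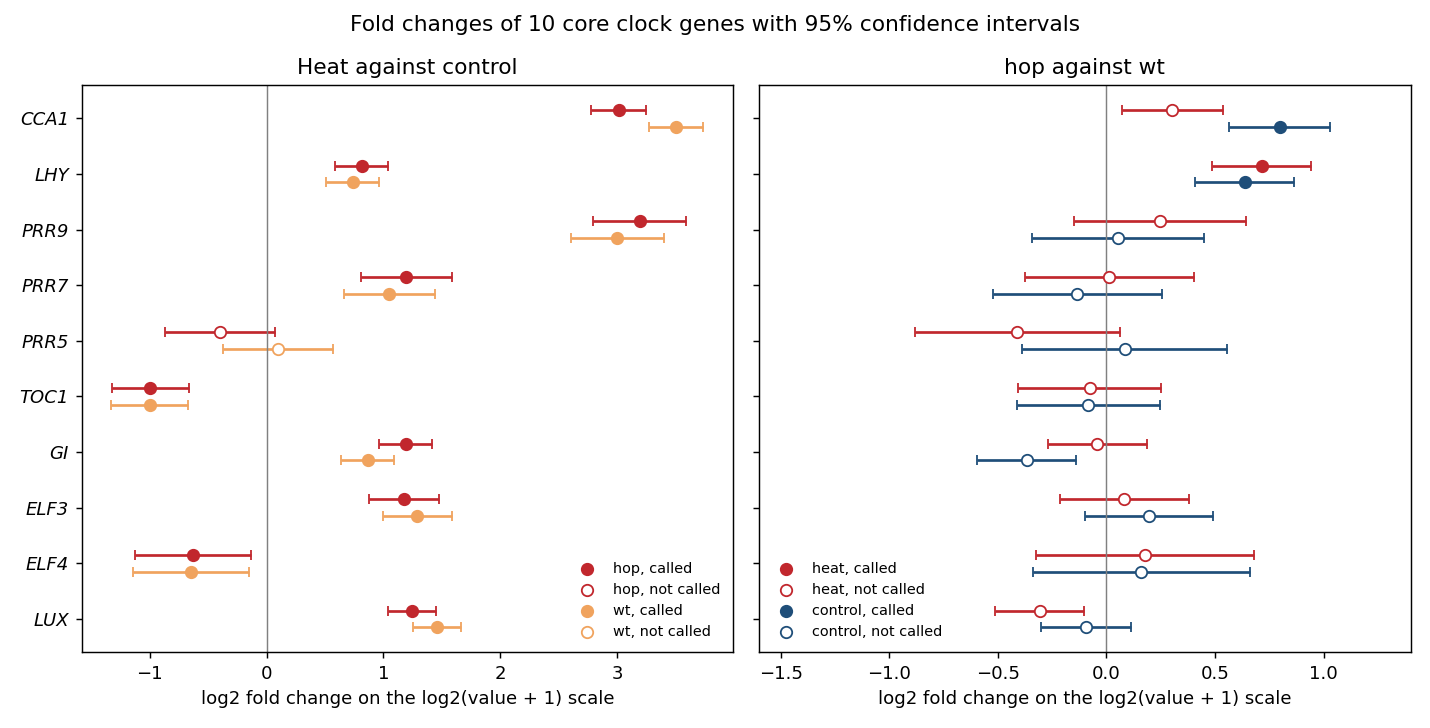
Log2 fold changes on the log2(value + 1) scale with 95% confidence intervals from limma, for heat against control (left) and hop against wt (right). Filled points passed an adjusted p under 0.05. At left TOC1 and ELF4 lie below 0 and PRR5 at -0.40 and 0.10, while LHY, at 0.82 in hop and 0.74 in wt, falls to -0.11 and -0.13 with scaling by total fragments alone. At right CCA1 (0.80, control) and LHY (0.64, control, and 0.72, heat) are the filled points.

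At control, 2 of the 10 clock genes were called between the genotypes, CCA1 and LHY, both higher in hop, in a comparison in which 0.831% of all genes were called and 0.344% were called higher. This comparison sets the mutant against wt among seedlings that were not heated. CCA1 was at 570 to 794 normalized fragments in hop control and at 365 to 389 in wt control. The log2 fold change was 0.80 ± 0.11 (adjusted p = 0.00213, limma), 2.24% of all genes had a larger one, and the ratios of same-numbered libraries were 1.54, 1.68 and 2.04. The spread was wider in hop control, with an SD of 118, against 12.3 in wt control.

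LHY was at 253 to 300 normalized fragments in hop control and at 163 to 194 in wt control, with no overlap. Its log2 fold change was 0.64 ± 0.11 (adjusted p = 0.0107, limma), and the ratios of same-numbered libraries were 1.55, 1.41 and 1.74. The call was lost without library 1 of hop control (adjusted p = 0.0566) and without library 3 of wt control (0.0834). It was also lost when only the 6 control libraries were fitted (0.0678) and with scaling by total fragments alone (0.0852), and the log2 fold change was 0.55 to 0.64 in these fits.

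GI was the one member with all hop control libraries below all wt control libraries, an order seen in 8.90% of genes, while 8.79% had the opposite order, as CCA1 and LHY had. Its log2 fold change was -0.37 (95% interval -0.59 to -0.14, adjusted p = 0.160, limma). At control same-numbered libraries of the genotypes deviated together. With the replicate number as a block in a fit of the 6 control libraries, GI was called, at an adjusted p of 0.0399, beside CCA1 and LHY, while the calls over all genes numbered 1156, against 198. Library 3 was the highest of its group in both genotypes for 7 of the 10 members at control, and library 1 the lowest in both for 6.

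The other 7 members overlapped between the genotypes at control. PRR9 had a log2 fold change of 0.05 (95% interval -0.34 to 0.45), PRR7 of -0.13 (-0.52 to 0.26), PRR5 of 0.08 (-0.39 to 0.56) and TOC1 of -0.08 (-0.41 to 0.25). ELF3 was at 0.20 (-0.10 to 0.49), ELF4 at 0.16 (-0.34 to 0.66) and LUX at -0.10 (-0.30 to 0.11). The intervals are wide enough to hold changes of the size seen for LHY in the case of ELF4 but not of LUX. The median over the 10 genes was 0.07, beside 0.01 over all genes.

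Under heat, LHY was again higher in hop and was the one member called, where 8.62% of all genes were called and 3.73% were called higher and 4.89% lower. LHY was at 474 to 508 normalized fragments in hop heat and at 276 to 313 in wt heat. The log2 fold change was 0.72 ± 0.11 (adjusted p = 0.00136, limma). The ratios of same-numbered libraries were 1.56, 1.84 and 1.55, although under heat the numbers were not taken to pair libraries. LHY kept this call under each alternative tried, with fold changes of 0.57 to 0.75 on the log2 scale and adjusted p from 1.18e-06 to 0.0258.

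CCA1 was at 5022 to 5710 normalized fragments in hop heat and at 4102 to 4428 in wt heat. These ranges did not overlap, and the log2 fold change of 0.30 ± 0.11 did not pass the test (adjusted p = 0.0988, limma). CCA1 passed it without library 3 of hop control (0.0344), a library that is in neither heat group and enters through the shared estimate of spread. CCA1 and PRR9 (log2 0.25, adjusted p = 0.449) joined LHY as the 3 members with all hop heat libraries above all wt heat libraries, an order held by 14.3% of genes.

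LUX and PRR5 had the opposite order, held by 11.7% of genes. LUX was at 1834 to 1996 normalized fragments in hop heat and 2287 to 2520 in wt heat. Its log2 fold change was -0.31 ± 0.10 (adjusted p = 0.0622, limma), and it passed with edgeR (0.0395), with DESeq2 (0.0375) and without library 2 of wt control (0.0448). In the authors' deposited table, LUX had a log2 fold change of -0.31 and an adjusted p of 0.0367 between the genotypes under heat. PRR5 was at 525 to 697 normalized fragments in hop heat, below the 804 to 820 of wt heat, with a log2 fold change of -0.41 (95% interval -0.88 to 0.06, adjusted p = 0.273). PRR7, TOC1, GI, ELF3 and ELF4 overlapped, with log2 fold changes between -0.08 and 0.18.

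The size of the heat response was also compared directly between the genotypes. None of the 10 genes was called for this interaction in limma, edgeR or DESeq2, where 0.0504% of all genes were called in limma. At an unadjusted p under 0.05 there were 2 members, CCA1 and GI. The heat response of CCA1 was smaller in hop by 0.49 on the log2 scale (-0.49, 95% interval -0.82 to -0.17, adjusted p = 0.264, limma). GI had a difference of 0.33 (0.00 to 0.65, adjusted p = 0.519), PRR5 of -0.49 (-1.16 to 0.17, adjusted p = 0.676) and LUX of -0.21 (-0.50 to 0.08, adjusted p = 0.686). LHY, higher in hop in both conditions, had a difference of 0.08 (-0.24 to 0.40). The intervals therefore allow differences of either sign for LHY, PRR5 and LUX.

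Ratios within a library do not depend on how libraries are scaled to each other, and they set a morning gene against an evening gene directly. The log2 ratio of CCA1 to TOC1 was 4.18, 4.12 and 4.01 in the hop heat libraries and 3.82, 3.91 and 3.45 in wt heat. It was 0.10, 0.15 and 0.03 in hop control and -0.75, -0.83 and -0.79 in wt control. CCA1 thus had more fragments than TOC1 in both heat groups, about as many in hop control and fewer in wt control, and the 4 groups did not overlap. The mean ratio was 4.01 higher under heat than at control in hop and 4.51 higher in wt, and at control it was 0.88 higher in hop than in wt. Fragments were not scaled for gene length in these ratios, which leaves differences between groups as they are.

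The log2 ratio of LHY to GI separated the genotypes more than the conditions. It averaged -1.36 ± 0.082 in hop heat and -2.12 ± 0.12 in wt heat, against -0.98 ± 0.27 in hop control and -1.99 ± 0.21 in wt control (SD, n = 3). The hop libraries, from -1.45 to -0.67, all lay above the wt libraries, from -2.25 to -1.74. Heat moved the mean by -0.38 in hop and -0.13 in wt, since the log2 fold change of GI lay above that of LHY in both genotypes.

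The log2 ratio of PRR9 to LUX averaged -0.46 ± 0.069 in hop heat and -1.01 ± 0.19 in wt heat, against -2.41 ± 0.27 in hop control and -2.56 ± 0.41 in wt control. It was higher under heat in both genotypes, by 1.95 in hop and 1.55 in wt. Under heat the hop libraries lay above the wt libraries, and at control they overlapped.

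CCA1 and LHY, both morning genes, also parted from each other, a pair chosen after its values were seen. The log2 ratio of CCA1 to LHY averaged 3.43 ± 0.14 in hop heat and 3.84 ± 0.044 in wt heat, against 1.23 ± 0.28 in hop control and 1.07 ± 0.16 in wt control. It was higher under heat by 2.20 in hop and 2.77 in wt. Ratios are descriptions and were not tested.

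**Figure D3:**
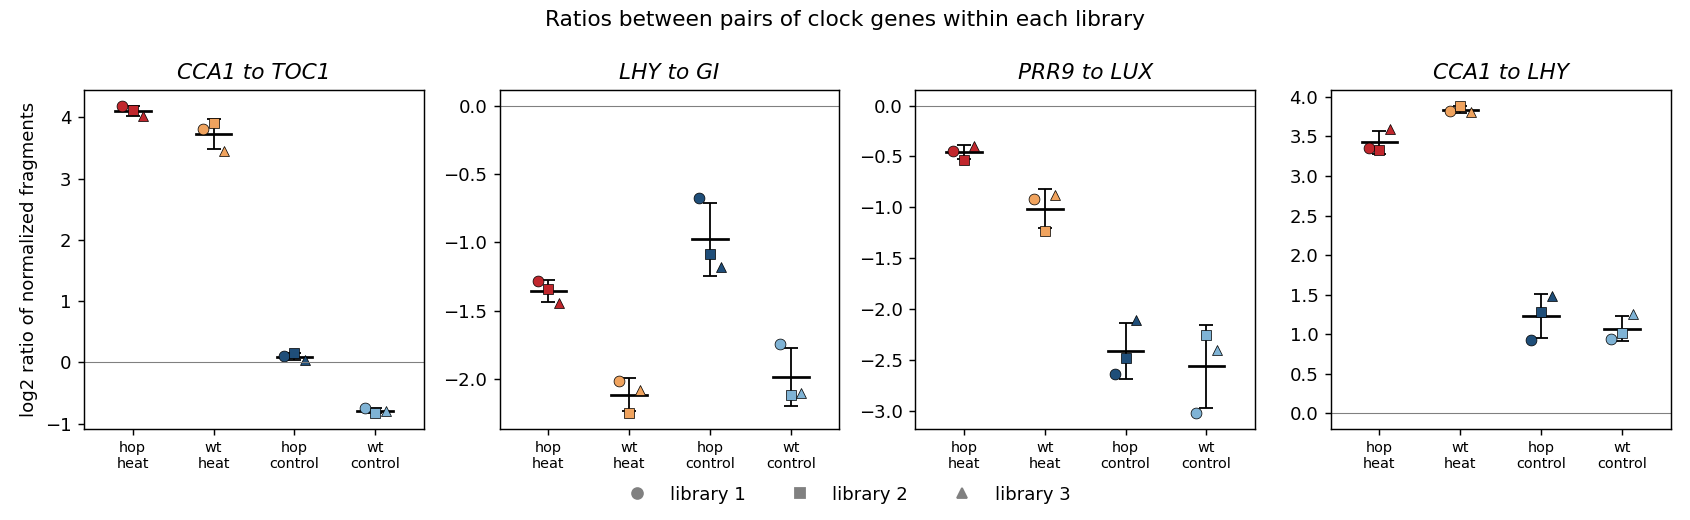
Log2 ratio of normalized fragments between pairs of clock genes in each library (points), with the mean (bar) and SD (whiskers) of 3 libraries. The ratio of CCA1 to TOC1 stands at 3.45 or above under heat and at 0.15 or below at control, and the ratio of LHY to GI is higher in all hop libraries than in all wt libraries.

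Levels of different genes were compared as fragments per kilobase of exon per M fragments, using the exons of TAIR10.1. In hop heat CCA1 led with 44.1 ± 7.25, followed by PRR7 (37.4), ELF3 (18.7), PRR9 (14.8), LUX (11.1), PRR5 (8.35), GI (6.62), LHY (3.24), TOC1 (2.50) and ELF4 (1.26). In wt heat PRR7 (40.6 ± 8.42) and CCA1 (39.1 ± 5.19) led, and LHY (2.18) and ELF4 (1.21) were last. CCA1 and PRR7 were apart from ELF3, the third, in both heat groups, but not from each other.

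At control the order of these length-scaled levels was different. In hop control PRR7 led with 31.8 ± 11.8, followed by PRR5 (21.6), ELF3 (15.6), CCA1 (10.5), TOC1 (9.56), LUX (8.83), GI (5.54), ELF4 (3.85), LHY (3.50) and PRR9 (3.12). In wt control PRR7 (36.2 ± 7.19), PRR5 (21.3), ELF3 (14.4), TOC1 (10.6) and LUX (10.08) led, CCA1 was the seventh (6.31), and PRR9 (3.22) and LHY (2.39) were last. Of the 9 pairs of neighbours in the order, 8 overlapped in hop control, 5 in wt control, and 5 in each heat group. The morning gene CCA1 and the evening gene TOC1 were neighbours that overlapped in hop control, whereas in wt control TOC1 lay above CCA1. LHY lay at the low end of the order in each group, under CCA1 throughout.

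**Figure D4:**
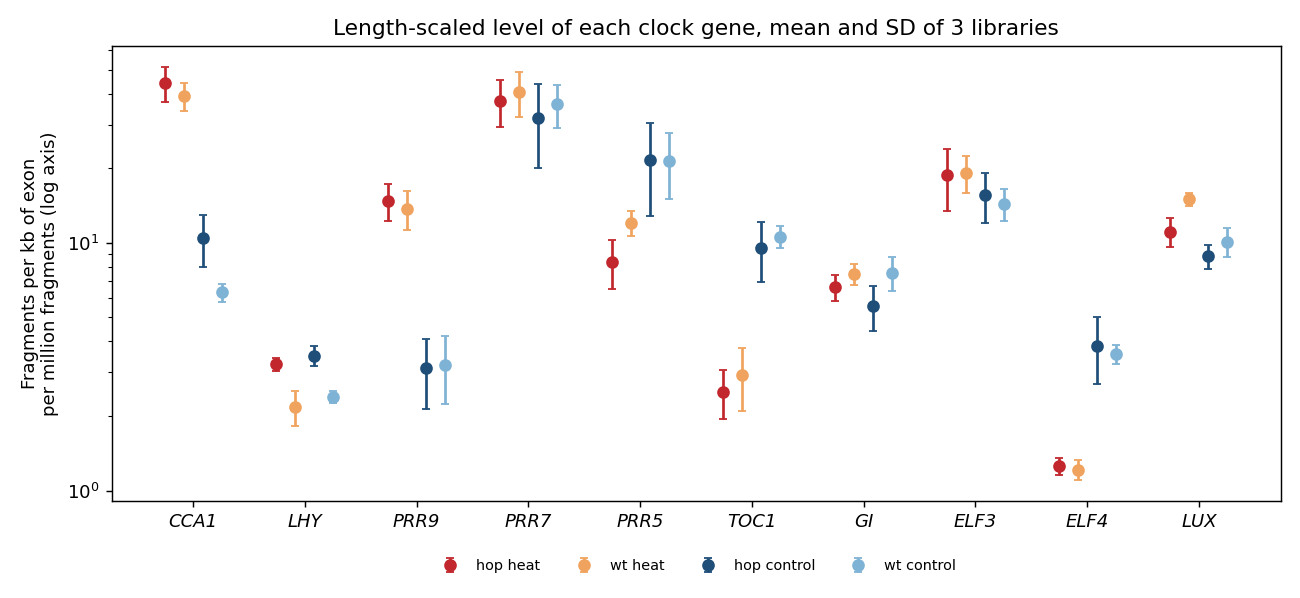
Fragments per kilobase of exon per M fragments (log axis) for each gene, as the mean and SD of 3 libraries per group. CCA1 and PRR9 are higher and TOC1, PRR5 and ELF4 lower in the heat groups than at control on this scale, which divides by total fragments, while PRR7 stays near the top in all groups.

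A further 38 genes of the clock and its output were examined in 5 lists, with all 38 tested. Heat was followed by 20 higher and 14 lower calls in hop, against 20 and 12 in wt, and the median log2 fold change was 0.58 in hop and 0.49 in wt. These shares, like those of the 10 core genes, stand beside the 33.3% and 35.2% (hop) and 33.2% and 35.8% (wt) of all genes. Scaled by total fragments alone, the medians of the 5 lists ran from -1.77 to -0.03 in hop and from -1.47 to 0.00 in wt.

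Of 11 other transcription factors and repressors of the clock, 6 were higher and 3 lower in hop, and 5 and 3 in wt. PRR3, a relative of TOC1, had the largest change, with a log2 fold change of -3.19 in hop (adjusted p = 0.000197, limma) and -4.28 in wt (1.18e-05). PRR3 had 2 to 5 fragments in the hop heat libraries and 0 to 4 in wt heat, against 31 to 114 in hop control and 31 to 98 in wt control, so its fold depends on the pseudocount. RVE5, a MYB protein related to CCA1, was higher, by 1.92 in hop and 2.07 in wt.

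Of the 4 LNK genes, coactivators that work with RVE proteins, 3 were higher in each genotype and 1 was lower in hop. LNK1 was at 4096 to 4318 normalized fragments in hop heat and 351 to 460 in hop control, a log2 fold change of 3.42 in hop (adjusted p = 1.45e-13, limma) and 3.27 in wt. LNK3 was higher by 1.45 in hop and 1.28 in wt. Of the 4 ELF4-like genes, 1 was higher and 3 lower in hop, and 1 and 2 in wt. ELF4-L1 was higher, by 2.21 in hop and 2.08 in wt, while ELF4-L2 was lower, at -1.58 and -1.56, so the relatives of ELF4 differed in direction.

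Of 9 genes that act on clock proteins or on clock gene regulation from outside the loop, 5 were higher and 3 lower in hop, and 6 and 3 in wt. XCT, a regulator of period length, had log2 fold changes of 3.25 in hop and 3.17 in wt (adjusted p = 3.02e-12 and 4.36e-12, limma). CKB3, a subunit of the kinase CK2, which phosphorylates CCA1, was higher by 2.51 in hop and 2.41 in wt. Of 10 output genes, 5 were higher and 4 lower in each genotype. RVE1 and RVE2, MYB proteins of the output, were higher, RVE1 by 2.48 in hop and 3.02 in wt and RVE2 by 1.86 in hop and 2.60 in wt.

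**Figure D5:**
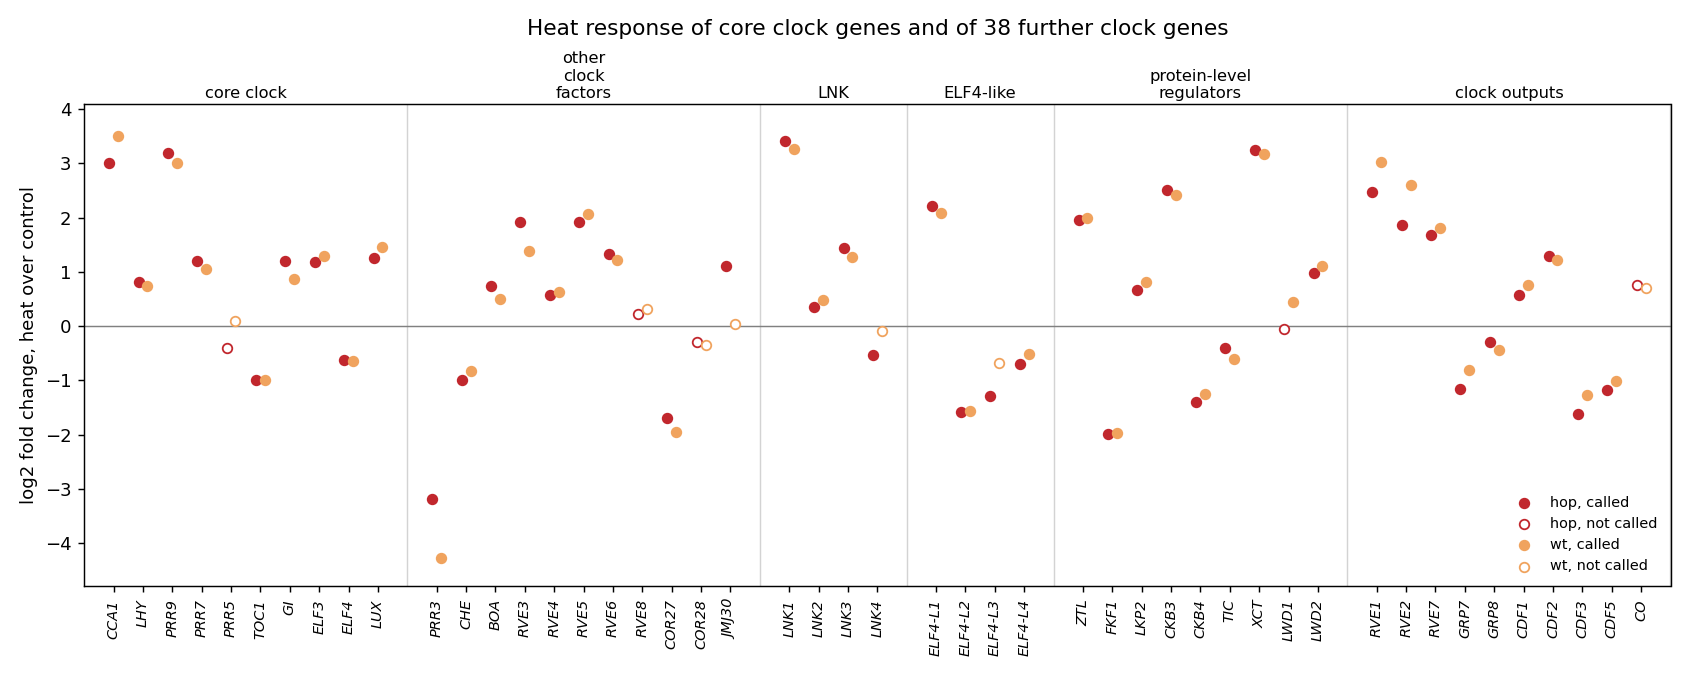
Log2 fold changes of heat over control on the deposited scale for the 10 core genes and 38 further clock genes, grouped by list, in hop and wt. Filled points passed an adjusted p under 0.05. Both directions occur in every list except the LNK genes of wt among called genes, and PRR3 is the lowest point at -4.28 in wt.

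Between the genotypes 1 of the 38 genes was called at control, where 0.831% of all genes were called, and 4 under heat, where 8.62% were. At control the call was RVE2, with 492 to 584 normalized fragments in hop control and 353 to 433 in wt control (log2 0.43, adjusted p = 0.0493, limma), and it passed in 5 of 21 settings (adjusted p from 0.00550 to 0.289). Under heat the histone demethylase gene JMJ30 was higher in hop (log2 0.91, adjusted p = 0.0347), and LNK4 (-0.38, 0.0168), LWD1 (-0.45, 0.00653) and CDF5 (-0.47, 0.0226) were lower. LWD1 passed in all 21 settings, LNK4 in 19, and JMJ30 and CDF5 in 16 each. None of the 38 was called for the interaction in limma, and 4 had an unadjusted p under 0.05 (JMJ30, LNK4, LWD1 and RVE2). RVE2 was at 1914 to 2006 normalized fragments in hop heat, below the 2288 to 2526 of wt heat, and its heat response was smaller in hop by a log2 difference of -0.74 (adjusted p = 0.0668, limma). RVE2 passed with edgeR (0.0322) and DESeq2 (0.000500), and LWD1, at -0.49 (0.149 in limma), passed with DESeq2 (0.0292).

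The genes whose pattern over the 12 libraries was most like that of CCA1, PRR7 and TOC1 were named by Pearson's r of log2(value + 1) among 19632 genes with a mean of at least 10. For CCA1 they were AT2G21820, AT4G17840 and AT3G57760, each at 0.996, and 3278 genes exceeded 0.95. For PRR7 they were MSL2 (AT5G10490, 0.991), AT1G13350 (0.991) and AT1G29350 (0.987), and 441 genes exceeded 0.95. For TOC1 they were OBE4 (AT3G63500, 0.990), BCA6 (AT1G58180, 0.990) and CRLK2 (AT5G15730, 0.988), and 589 genes exceeded 0.95. The libraries fall into 2 conditions with most of the variation between them, so r mostly measures the shared step between heat and control. Among the members r with CCA1 ran from 0.98 for PRR9 to 0.83 for LHY on the positive side, and was -0.91 for TOC1 and -0.21 for PRR5.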

How the data were processed

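Per the labels' protocols, mRNA libraries were stranded. The submitters' processing notes name TopHat2 2.1.0, HTSeq and, as version 1.1.14, DESeq2, with no role or order. Not given in the sources used here are genome build, annotation and filters. The signal deposited by the authors, headed normalized fragments per the file headers, holds each gene's fragments after division by the library's size factor. Dividing it by the worth of a single fragment returned whole counts (100% of values, tolerance 0.01), so the counts the authors normalized could be used. The log2 fold changes and adjusted p-values that the authors deposited beside them entered no test and are named as the authors' deposited table where quoted.

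The main test was limma 3.58.1 (R 4.3.3; trend and robust options) on log2(value + 1), fitted to all 12 libraries with 4 group means. Genes with at least 1 in at least 3 libraries were tested (23827), and Benjamini-Hochberg adjusted p under 0.05 made a call. The pseudocount understates changes of low genes. edgeR 4.0.16 and DESeq2 1.42.0 on the recovered counts were alternatives, as were another pseudocount, other filters, a replicate block and leaving out each library. On simulated counts of 23546 genes, for hop against wt under heat, the test recovered 78 of 100 genes at 2-fold and 97 of 100 at 4-fold, with 14 false calls among 189. Changes were put only into genes with a mean of at least 10, and libraries were drawn independently. Folds below 2, such as those of CCA1 and LHY between the genotypes, were not simulated.

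Groups came from the labels, which do not say that replicates were separate cultures, and p-values then cover only the spread among these libraries, which may be technical. No 2 replicates agreed within sampling noise (chi-square per degree of freedom 9.51 to 76.8). Deviations of same-numbered libraries correlated at 0.174 to 0.314 between the genotypes at control, which the numbers were taken to pair. The main test did not use this pairing, so its p-values at control ignore it. Fits with a replicate block were alternatives. Members and lists were chosen with earlier results of these data known. Text names the 10 members, HOP1 to HOP3, HSFB2B, the 2 members of each further list with the largest called change, called genes of small counts, and 3 genes most like CCA1, PRR7 and TOC1. TAIR10.1 locus tags matched 32548 of the 32833 loci.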

Additional observations from a re-analysis of the deposited data

How the results depend on the processing

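With 3 libraries per group and 19 to 97 fragments for ELF4, small changes could not be resolved, and heat values rest on the authors' size factors. Of the members' single values under the alternatives, 942 kept their direction and call, 40 reversed, 12 became called and 16 lost a call; the cause was not tested. No more than 9 and no fewer than 8 members were called in either heat comparison when single libraries were left out. By library size alone LHY, PRR7, GI and ELF3 lost their heat calls in both genotypes, and PRR5 was called lower in both.

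For hop against wt at control, members called numbered 1 with scaling by library size alone and 1 with only the 6 libraries compared, and 1 to 2 with single libraries left out. Calls over all genes there were 305 with edgeR (TMM), 440 with DESeq2, 82 with only the 6 libraries and 1156 with these and a replicate block (chosen after seeing the data), and 54 to 214 with single libraries left out. For hop against wt under heat, members called numbered 2 with edgeR, DESeq2 or the replicate block over 12 libraries, 4 with the replicate block in the 6 libraries, and 1 to 2 with libraries left out. The 4 were LHY, CCA1 (adjusted p = 0.0452), LUX (0.0376) and PRR5 (0.0208). Calls over all genes there were 1251 by library size alone and 1079 to 2334 with libraries left out. For the interaction they were 34 with edgeR, 176 with DESeq2, 5 by library size alone, 34 with the replicate block, and 1 to 94 with libraries left out, while no member was called. Same-numbered libraries correlated at 0.0559 to 0.183 between the genotypes under heat, -0.138 to 0.0507 between heat and control in wt and -0.0307 to 0.136 in hop, so the numbers were not taken to pair those, although each heat library correlated best with its own number between the genotypes. With the replicate block over 12 libraries PRR5 was called between heat and control in hop (adjusted p = 0.0167).

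Log2 fold changes reversed by library size alone were LHY under heat in hop (-0.11) and in wt (-0.13), PRR5 (-0.83) and GI (-0.024) under heat in wt, PRR9 at control (-0.045), and PRR7 (-0.12) and ELF3 (-0.029) between the genotypes under heat. The last comparison also reversed for PRR7 with edgeR (-0.018). The interaction of TOC1 reversed with edgeR (-0.060), DESeq2 (-0.024) and library size alone (-0.078), and that of ELF4 in the same fits (-0.062, -0.024 and -0.071). With single libraries left out, values that reversed ran, for the interaction, from -0.25 to 0.17 for ELF4, -0.12 to 0.18 for TOC1, -0.25 to 0.024 for ELF3 and -0.029 to 0.39 for PRR7. Between the genotypes at control they ran from -0.37 to 0.042 for PRR7, -0.16 to 0.21 for PRR9, -0.19 to 0.26 for PRR5 and -0.25 to 0.018 for TOC1. Between the genotypes under heat they ran from -0.057 to 0.22 for ELF3, -0.083 to 0.095 for PRR7 and -0.20 to 0.064 for TOC1, and for heat in wt from -0.082 to 0.28 for PRR5. None of these reversed values was called except PRR5 under heat in wt by library size alone (adjusted p = 0.0194).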
